A study of Mus musculus with 13 samples.

Results

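Pmepa1 and 9 genes grouped with it were followed across 13 nuclear RNA libraries of mouse heart muscle. All but Serpine2, which encodes a secreted protease inhibitor, carry or restrain TGF-beta signalling. The 10 genes were Pmepa1, Smad7, Smad6, Smad3, Smad2, Ski, Skil, Tgfbr1, Tgfbr2 and Serpine2, out of 55536 genes in the table. They were named after the difference between the 2 vectors had been seen in these same libraries, so their values in the vector comparison are a description, and no call among them in that comparison counts as support. Each of the 10 had a row, and each passed the filter on low counts together with 16125 genes in all.

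The libraries came from nuclei of mouse ventricular muscle sorted for Pcm1, a protein found around the nucleus of cardiomyocytes. Male and female C57BL/6J mice were given adeno-associated virus of serotype 6 once, into the peritoneum, on postnatal day 1, and the hearts were taken on postnatal day 56. The control vector had no insert (AAV_Con), and the other vector carried human PR, the progesterone receptor (AAV_PGR). The groups were 4 control female libraries (Con_F), 3 control male libraries (Con_M), 3 PR female libraries (PGR_F, numbered 1, 2 and 4) and 3 PR male libraries (PGR_M). Each library pooled 3 to 6 ventricles, and all 4 groups carried a virus. No label names the promoter that drives PR in the vector, and the human PR transcript was not analysed here. The labels do not say that the pools were independent experiments, so the p-values measure only the spread between these libraries.

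TGF-beta ligands bind a pair of receptor kinases, and the activated type I receptor phosphorylates Smad2 and Smad3, which enter the nucleus with Smad4 and switch genes on. Several of those genes encode brakes on the same pathway: Smad7 and Smad6 act at the receptors, Ski and Skil hold Smads in a repressed state, and Pmepa1 is a membrane protein that binds Smad2 and Smad3 and keeps them from the receptor. In the heart the pathway is best known for fibroblast activation and for growth and stress responses of muscle cells.

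One library stood apart. Con_F 4 held 159 counts on Y-linked genes, 1.03% of the mean male level at equal depth, against 0.0115% to 0.115% in the other 6 female libraries. It was nearer to the PGR_F mean than to the mean of the other Con_F libraries for 7 of the 10 genes. These were Smad7, Smad6, Smad3, Smad2, Ski, Skil and Serpine2. For Con_F 1, 2 and 3 the count was 4, 4 and 3 of the 10, with Smad3 and Smad2 among them each time. Over all tested genes the share was 57.4% for Con_F 4, and 40.1%, 49.5% and 40% for Con_F 1, 2 and 3. The vector differences of the 10 genes in females, their calls and the medians of the pathway lists are therefore given with and without Con_F 4. Total counts per library ran from 37646536 to 58948135 in Con_F, from 33299624 to 86330792 in Con_M, from 31761146 to 55497850 in PGR_F and from 45269257 to 57905747 in PGR_M. The summed level of 18 cardiomyocyte markers was 95887 to 117039 counts scaled to library size (CPM) per library, none of the 18 being at 0 in all libraries, and the sum of 13 fibroblast markers was 43.1 to 188.7 CPM. In a pooled sample of nuclei, fewer nuclei of a kind and less RNA per nucleus cannot be told apart.

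Promoter sequences from RefSeq (build GRCm38.p6) could be matched for 6 of the 10 genes, in 7 windows out of 32851. Pmepa1, Smad7, Smad2 and Skil had no window. The windows of Smad6, Ski and Serpine2 are shown, as examples of an inhibitory Smad, a co-repressor and a protease inhibitor whose windows hold sequences described for Smad proteins. Each runs 5′ to 3′ from 250 bases before the RefSeq start and ends at most 10 bases into the first annotated exon it meets. The Serpine2 window lies inside the interval used for its counts (79794197 to 79861180). Likewise the Tgfbr1 window that starts at 47385966 lies inside the Tgfbr1 interval (47353222 to 47414931). Capitals mark the matches.
Smad6 (chr9:64022050-64022309, minus strand): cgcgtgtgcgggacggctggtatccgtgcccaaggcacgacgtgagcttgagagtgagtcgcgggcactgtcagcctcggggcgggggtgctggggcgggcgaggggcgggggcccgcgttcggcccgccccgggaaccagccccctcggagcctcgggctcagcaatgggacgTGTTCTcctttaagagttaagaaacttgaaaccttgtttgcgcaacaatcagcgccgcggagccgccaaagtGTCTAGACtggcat
Ski (chr4:155222583-155222785, minus strand): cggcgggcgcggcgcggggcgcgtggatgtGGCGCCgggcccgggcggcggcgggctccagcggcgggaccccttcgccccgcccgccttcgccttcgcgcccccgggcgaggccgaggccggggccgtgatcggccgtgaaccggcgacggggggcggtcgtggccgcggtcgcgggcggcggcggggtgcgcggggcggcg
Serpine2 (chr1:79858687-79858915, minus strand): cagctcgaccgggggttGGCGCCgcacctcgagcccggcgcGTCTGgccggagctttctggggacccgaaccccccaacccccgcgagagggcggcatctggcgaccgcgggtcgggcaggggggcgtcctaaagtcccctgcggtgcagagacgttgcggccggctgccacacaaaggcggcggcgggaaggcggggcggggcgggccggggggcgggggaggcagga
Every motif was searched on both strands. The Smad palindrome reads GTCTAGAC. The Smad box reads CAGAC on one strand, and its complement appears in the Serpine2 window. The GC-rich Smad site reads GGCGCC. The steroid receptor half-site reads AGAACA, and the Smad6 window holds its complement. The half-site is part of the full steroid receptor palindrome, and the Smad palindrome does not contain the box. The Smad6 window held GTCTAGAC at base 247, a sequence found in 0.177% of all windows cut at 260 bases, and the half-site at base 175, found in 16.7%. The Ski window held GGCGCC at base 31, found in 9.96% of windows. The Serpine2 window held GGCGCC at base 18 and the Smad box at base 42, and the box was found in 44.0% of windows. The Smad box was also in the Tgfbr2 window, at base 91, and in one of the Tgfbr1 windows, at base 48, and the other Tgfbr1 window held GGCGCC at base 18. The full steroid palindrome (0.00913% of windows) was in none of the 7 windows, and the Smad3 window held none of the motifs searched. These letters are a description of the sequence and not evidence of binding.

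Pmepa1 was the most evenly measured of the 10 genes and had the clearest separation by vector. Both traits of Pmepa1 enter the comparison on which it was chosen and are only a description. Its level in CPM, scaled by TMM (a correction for library composition), was 49.3, 47.2, 46.5 and 43.0 in Con_F 1 to 4, while the Con_M libraries stood at 41.9, 42.8 and 42.9. It was 31.8, 34.5 and 34.1 in PGR_F and 30.3, 29.7 and 29.5 in PGR_M. All 6 PGR libraries lay below all 7 control libraries. Under the control vector the mean was 46.5 ± 2.61 CPM in females (SD, n = 4) and 42.6 ± 0.525 CPM in males (SD, n = 3). Under the PGR vector it was 33.5 ± 1.44 CPM in females and 29.8 ± 0.427 CPM in males (SD, n = 3 each). The log2 fold change was -0.49 ± 0.05 (SE) averaged over the sexes, a fold of 0.711, with -0.47 ± 0.07 in females and -0.51 ± 0.07 in males. Without Con_F 4 these were -0.51, -0.51 and -0.51. Its standard deviation within groups, 0.0572 on the log2 scale, was at percentile 1.2 of all tested genes, whose median was 0.189. Raw counts of Pmepa1 ran from 1021 to 3601 per library.

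**Figure D1:**
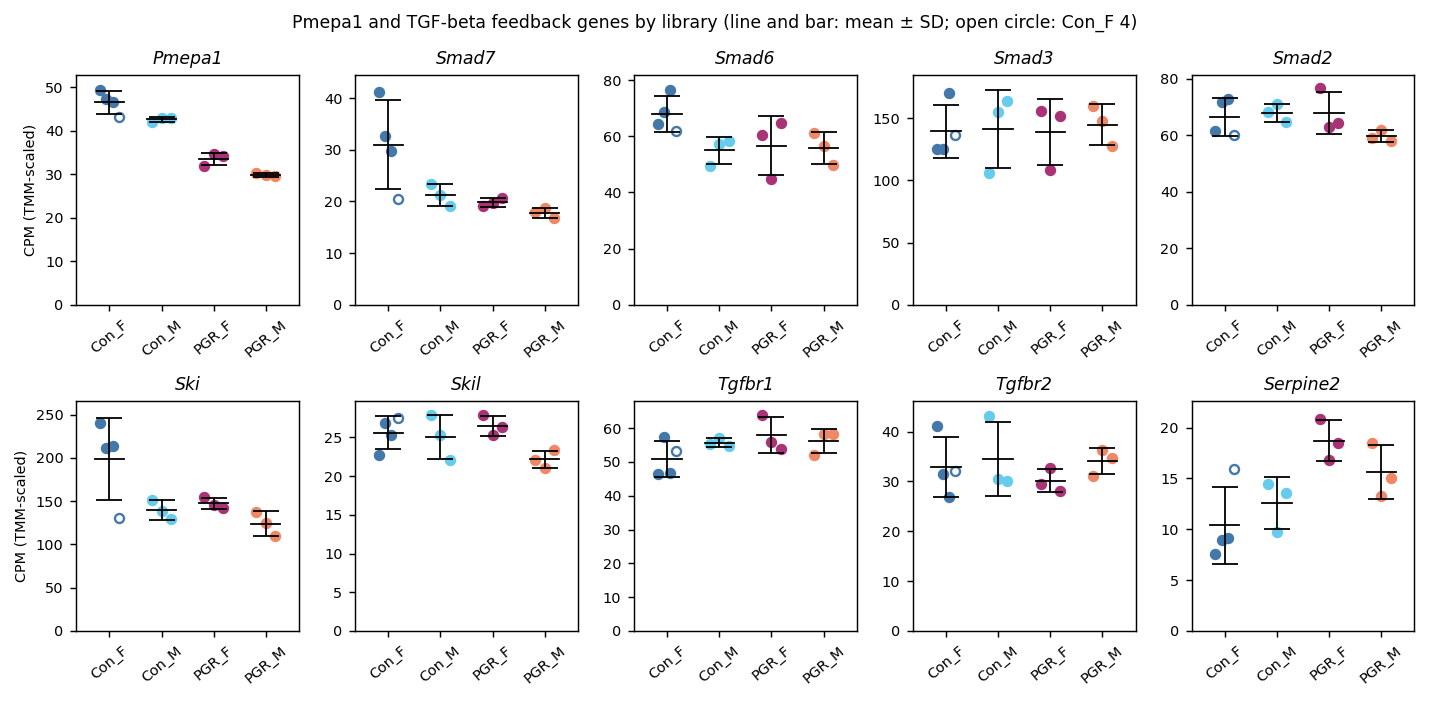
Level of the 10 genes in CPM scaled by TMM (vertical axes, each from 0) in the 13 libraries by group; points are libraries, lines and bars are mean ± SD, and the open circle is Con_F 4. For Pmepa1 the 6 PGR libraries sit between 29.5 and 34.5 CPM, below the 7 control libraries; for Ski, Smad7 and Serpine2 Con_F 4 lies away from the other 3 Con_F libraries.

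Pmepa1 lies on chromosome 2 at 173224458 to 173276533 (GRCm38, minus strand; GENCODE M21). No other gene of the table overlaps its interval, nor that of any of the other 9 genes, on either strand. The antisense gene Pmepa1os begins 164 bases away on the plus strand. Pmepa1os had 22 to 50 counts per library and a log2 fold change of -0.04 ± 0.17 (SE) for the vector. The nearest protein-coding gene is Zbp1, a sensor of nucleic acids, 5534 bases beyond the end of Pmepa1. Zbp1 had 2 to 18 counts per library and a log2 fold change of 0.88 ± 0.41 (SE), with an adjusted p of 0.335 in edgeR's quasi-likelihood test. Pck1, 65184 bases away on the same side, and Ankrd60 and 1700021F07Rik on the other side did not pass the filter on low counts.

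Smad7 and Smad6 are the inhibitory Smads. Smad7, which blocks the type I receptor and recruits ubiquitin ligases to it, stood at 41.2, 32.7, 29.7 and 20.4 CPM in Con_F 1 to 4 and at 23.4, 21.3 and 19.1 in Con_M. It stood at 19.2, 19.6 and 20.7 in PGR_F and at 17.96, 18.7 and 16.8 in PGR_M. The first 3 Con_F libraries were above every other library, while Con_F 4 fell inside the range of PGR_F. The male groups did not overlap, and the female groups did. The log2 fold change of Smad7 was -0.65 ± 0.17 (SE) in females and -0.26 ± 0.18 in males. The female value was -0.80 ± 0.11 without Con_F 4 and -0.48 without Con_F 1. Of 14 endothelial markers, 0 had a log2 fold change above 0 in females (median -0.20) and 14 did in males (median 0.26). The summed level of these markers was 82.8 to 101.4 CPM in Con_F, 42.2 to 78.3 in Con_M, 56.95 to 105.6 in PGR_F and 46.7 to 86.96 in PGR_M. None of the 14 passed the adjusted threshold, and their part in the values of the 10 genes was not tested. Smad6, which acts mainly on the BMP branch, was 64.4, 68.5, 76.4 and 61.8 CPM in Con_F, and 49.4, 57.2 and 58.1 in control males. Smad6 was 60.5, 44.9 and 64.6 in PGR_F and 61.2, 56.4 and 49.8 in PGR_M. The PGR libraries overlapped the controls in both sexes. Its log2 fold change was -0.26 ± 0.12 (SE) in females and 0.02 ± 0.13 in males. The female value of Smad6 was -0.30 without Con_F 4 and -0.11 without PGR_F 2, and the male value ran from -0.05 without PGR_M 1 to 0.11 without PGR_M 3.

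Ski and Skil are co-repressors. Ski, which binds Smad complexes on DNA and recruits histone deacetylases, was 239.96, 211.95, 213.95 and 130.8 CPM in Con_F and 151.9, 138.5 and 129.2 in Con_M. Ski was 154.4, 145.8 and 142.5 in PGR_F and 137.9, 124.7 and 109.5 in PGR_M. As for Smad7, Con_F 1 to 3 lay above the 10 other libraries and Con_F 4 lay among them. The log2 fold change of Ski was -0.43 ± 0.16 (SE) in females and -0.17 ± 0.17 in males. The female value of Ski was -0.59 ± 0.10 without Con_F 4 and -0.33 without Con_F 1. Skil, the closest relative of Ski, ranged from 22.7 to 27.5 CPM in Con_F, 22.1 to 27.9 in Con_M, 25.3 to 27.9 in PGR_F and 21.1 to 23.3 in PGR_M. Its vector difference was 0.05 ± 0.09 (SE) in females (0.09 without Con_F 4) and -0.18 ± 0.10 in males on the log2 scale, the male value being close to that of Ski.

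The receptors and the Smads they activate had averaged vector differences of at most 0.10 in size on the log2 scale. Tgfbr1, the type I receptor, ranged from 46.3 to 57.4 CPM in Con_F, 54.6 to 57.2 in Con_M, 53.8 to 63.9 in PGR_F and 52.2 to 58.4 in PGR_M. Tgfbr2, the type II receptor that binds ligand first, ranged from 26.8 to 41.1, 30.0 to 43.1, 28.2 to 32.7 and 31.2 to 36.2 CPM in the same order of groups. Both receptors overlapped between vectors in each sex, with averaged log2 fold changes of 0.10 ± 0.06 (SE) for Tgfbr1 and -0.08 ± 0.11 for Tgfbr2. In females they were 0.18 for Tgfbr1 (0.21 without Con_F 4) and -0.13 for Tgfbr2 (-0.14 without Con_F 4), and the averaged value of Tgfbr2 turned to 0.02 without Con_M 1. Smad3 under the control vector was 125.05, 124.99, 170.3 and 136.8 CPM in females and 105.7, 154.9 and 163.7 CPM in males. Under the PGR vector it was 155.95, 108.7 and 151.9 CPM in females and 159.6, 147.3 and 127.4 CPM in males. The 4 groups of Smad3 overlapped throughout, with an averaged log2 fold change of 0.01 ± 0.12 (SE). That value kept its sign in 14 of the 20 alternatives run and was lowest without Con_M 1 (-0.07). The female value of Smad3 was -0.01 without Con_F 4. Smad2 ranged from 60.2 to 72.7 CPM in Con_F, 64.6 to 70.9 in Con_M, 62.8 to 76.6 in PGR_F and 57.9 to 62.0 in PGR_M. The male groups of Smad2 did not overlap, and its log2 fold change was -0.19 ± 0.10 (SE) in males and 0.03 ± 0.09 in females, which turned to -0.02 without Con_F 4.

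Serpine2, a secreted inhibitor of thrombin and plasminogen activators, had the largest positive vector difference of the 10. It was 7.52, 8.98, 9.11 and 15.97 CPM in Con_F 1 to 4 and 14.4, 9.71 and 13.6 in Con_M. It was 20.8, 16.8 and 18.5 in PGR_F and 18.5, 13.3 and 15.1 in PGR_M. All PGR_F libraries were above all Con_F libraries, with Con_F 4 nearest to them, and the male groups overlapped. The log2 fold change was 0.85 ± 0.23 (SE) in females and 0.31 ± 0.24 in males. The female value was 1.13 ± 0.16 without Con_F 4 and 0.72 without Con_F 1. Serpine2 also had the widest spread within groups of the 10, 0.335 on the log2 scale.

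**Figure D2:**
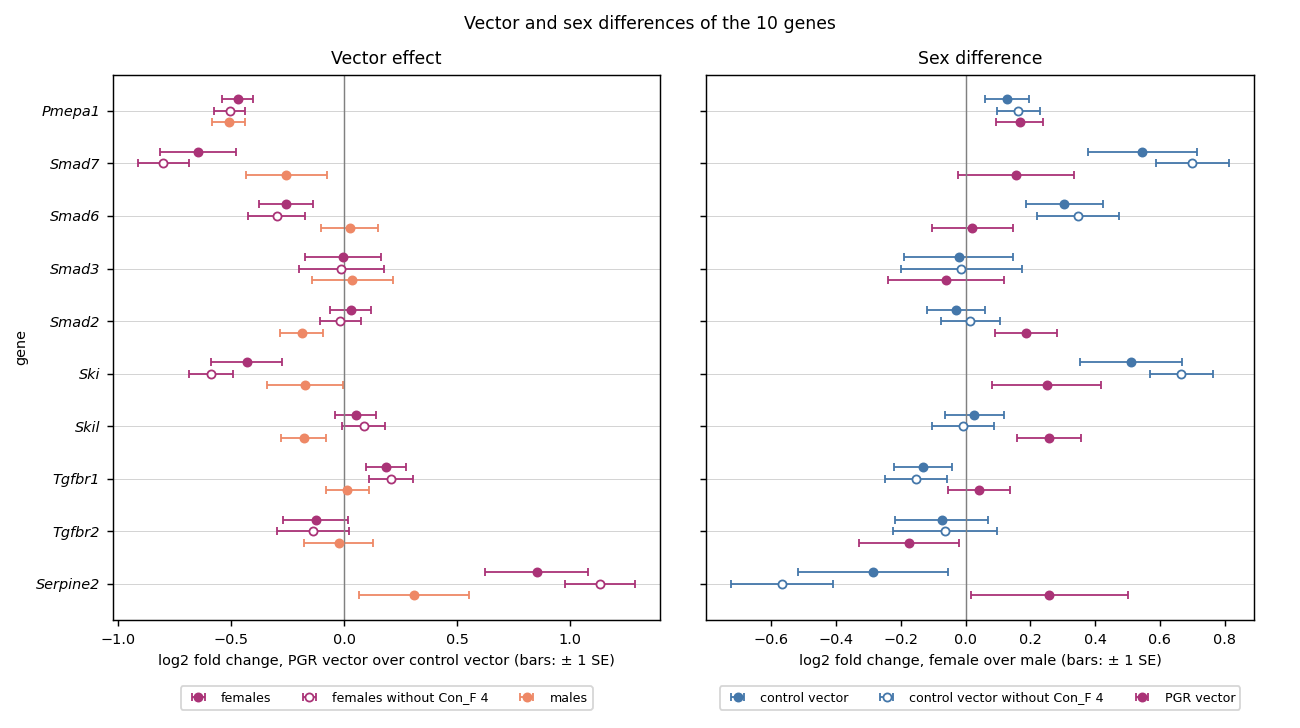
Left, log2 fold change of PGR over control vector in females (filled purple), in females without Con_F 4 (open) and in males (orange); right, log2 fold change of female over male under the control vector (filled blue), the same without Con_F 4 (open) and under the PGR vector (purple). Bars are ± 1 SE. Pmepa1 has nearly the same vector difference in both sexes, at -0.47 and -0.51, and for Smad7, Ski and Serpine2 the female and male values lie further apart, by differences that did not pass the test.

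Called at an adjusted p under 0.05 in edgeR's quasi-likelihood test, the averaged vector comparison held 1 gene, 0.0062% of all tested genes, and this gene was Pmepa1. Since the genes were chosen on this comparison, nothing is read from that count or from the other vector counts here. In females alone 0 of 10 were called against a background of 0%, and in males alone 0 of 10 against 0%. At an unadjusted p under 0.05 the counts were 4 of 10 averaged (Pmepa1, Smad7, Ski and Serpine2; background 14.8%), 5 in females (these and Smad6; 10.9%) and 1 in males (Pmepa1; 7.48%). Groups did not overlap for 1 of 10 over all libraries (Pmepa1; 0.62% of all genes), for 2 in females (Pmepa1 and Serpine2; 8.24%) and for 3 in males (Pmepa1, Smad7 and Smad2; 15.7%). DESeq2, another count test, called 3 averaged (Pmepa1, Smad7 and Serpine2; 2.51%), the same 3 in females (0.595%) and Pmepa1 in males (0.187%). With limma-voom the counts were 1 (Pmepa1; 0.0124%), 0 (0%) and 0 (0%). Without Con_F 4 the averaged comparison held 338 called genes, 2.09% of those tested, among them Pmepa1, Smad7, Ski and Serpine2. The same 4 were called in females (0.124% of all genes) and Pmepa1 in males (0.00618%).

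For each gene the female and male vector effects were compared by a test of their difference. None of the 10 passed the threshold in edgeR's quasi-likelihood test (0 of 10, background 0%), nor at an unadjusted p under 0.05 (0 of 10, background 3.26%). The counts were also 0 with DESeq2 (0.00621%) and with limma-voom (0%). For Pmepa1 the vector effect was 0.04 ± 0.10 (SE, log2) greater in females than in males, that is, less negative. The difference was -0.39 ± 0.25 for Smad7, -0.26 ± 0.23 for Ski and 0.55 ± 0.33 for Serpine2. Without Con_F 4 it was -0.54 ± 0.16 for Smad7, -0.42 ± 0.14 for Ski and 0.83 ± 0.22 for Serpine2, with adjusted p = 0.998 for each of them in edgeR's test (0 of 10 called, background 0%). Their unadjusted edgeR p in that fit was 0.00433, 0.0088 and 0.00208. Thus 3 of 10 were under the unadjusted threshold, against 3.52% of all genes. Con_F 4 was set apart partly by its values for Smad7, Ski and Serpine2, so nothing is read from that count. Without Con_F 1 the difference was -0.22 for Smad7, -0.16 for Ski and 0.41 for Serpine2. Over all 13 libraries, the 14 endothelial markers had a difference below 0 (median -0.49), as did Smad7 and Ski but not Pmepa1 and Serpine2. Above 0 were 3 of 13 fibroblast markers (median -0.35) and 3 of 11 macrophage and leukocyte markers (median -0.36). So were 3 of 9 smooth muscle and pericyte markers (median -0.16) and 8 of 18 cardiomyocyte markers (median -0.02). The part of these markers in the values of the 10 genes was not tested. A difference between the sexes was therefore not shown at the adjusted threshold for any of the 10 genes.

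Levels in females and males were compared within each vector. These comparisons share libraries with the vector comparison: the control comparison uses the same Con_F libraries against which PGR_F was set. Under the control vector 0 of 10 were called by edgeR's quasi-likelihood test, against 0.229% of all genes. At an unadjusted p under 0.05 there were 3 (Smad7, Smad6 and Ski, all higher in females; background 12.4%). Smad6 was 0.30 ± 0.12 (SE, log2) higher in females, or 0.35 ± 0.13 without Con_F 4. Smad7 was 0.55 ± 0.17 (SE, log2) higher in females with adjusted p = 0.23 in edgeR's test, and Ski 0.51 ± 0.16 higher with adjusted p = 0.23. Without Con_F 4 both passed the threshold, as did 0.568% of all genes. Smad7 was then at 0.70 ± 0.11 with edgeR's adjusted p = 0.012 and Ski at 0.67 ± 0.10 with edgeR's adjusted p = 0.00506. The differences were 0.37 for Smad7 and 0.40 for Ski without Con_F 1, and neither passed. Con_F 4 was set apart partly by its values for both genes, so nothing is read from their calls without it. Groups did not overlap for Pmepa1 and Smad6 (2 of 10; background 11.3%). DESeq2 and limma-voom each called 0 of 10, against 1.51% and 0.236% of genes.

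Under the PGR vector the sexes differed for none of the 10 at the adjusted threshold of edgeR's test (background 0.143%), and Pmepa1 and Skil passed the unadjusted one (2 of 10; background 7.25%). Both were higher in females, Pmepa1 by 0.17 ± 0.07 (SE, log2) and Skil by 0.26 ± 0.10. The female and male groups did not overlap for 5 of 10 genes (Pmepa1, Smad7, Smad2, Ski and Skil, all higher in females; background 13.7%). DESeq2 called 0 of 10 (0.538%) and limma-voom 0 of 10 (0.149%), and edgeR without Con_F 4 also called 0 (0.272%).

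Averaged over both vectors, 0 of 10 genes passed the adjusted threshold of edgeR's quasi-likelihood test for sex (background 0.887%), and 3 passed the unadjusted one (Pmepa1, Smad7 and Ski; background 15.1%). Ski was 0.38 ± 0.11 (SE, log2) higher in females with edgeR's adjusted p = 0.133. Smad7 was 0.35 ± 0.12 higher with edgeR's adjusted p = 0.188, and Pmepa1 0.15 ± 0.05 higher with edgeR's adjusted p = 0.166. DESeq2 called 1 of 10, Ski (background 3.4%), and limma-voom called 0 (background 1%). Without Con_F 4, Ski passed at 0.46 ± 0.07 with edgeR's adjusted p = 0.00375 and Smad7 at 0.43 ± 0.08 with edgeR's adjusted p = 0.0148, beside 2.29% of all genes. The differences were 0.32 for Ski and 0.26 for Smad7 without Con_F 1, and neither passed. As above, nothing is read from calls of these genes made without Con_F 4. Fibroblast and endothelial markers stood higher in females as well. All 13 fibroblast markers and all 14 endothelial markers had a log2 difference above 0 in this comparison, with medians of 0.66 and 0.43, against a median of 0.01 over all tested genes. Above 0 were also 10 of 11 macrophage and leukocyte markers (median 0.25) and 6 of 9 smooth muscle and pericyte markers (median 0.12). Of the cardiomyocyte markers, 8 of 18 were above 0 (median -0.01). None of these markers passed the adjusted threshold. Summed fibroblast markers were 113.3 to 167.7 CPM in Con_F, 43.1 to 101.4 in Con_M, 84.1 to 188.7 in PGR_F and 52.4 to 135.1 in PGR_M. Their part in the sex differences of the 10 genes was not tested.

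The 10 genes were compared in level per kb of gene interval, since reads from nuclei fall in introns too. The mean over the 13 libraries was 2.28 CPM per kb for Ski, 1.27 for Smad3, 0.946 for Smad2, 0.905 for Skil, 0.889 for Tgfbr1, 0.862 for Smad6, 0.814 for Smad7, 0.744 for Pmepa1, 0.361 for Tgfbr2 and 0.209 for Serpine2. Ski lay above every library of the others. The 6 genes from Smad2 to Pmepa1 overlapped one another in their ranges over libraries, and Smad3 overlapped Smad2, and Tgfbr2 overlapped Serpine2, so the order within these sets is not firm. Per kb of exons the order changed: Ski and Smad3 stayed first, Smad6 was at rank 3, Pmepa1 at rank 5 and Skil at rank 9, and Serpine2 stayed last.

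**Figure D3:**
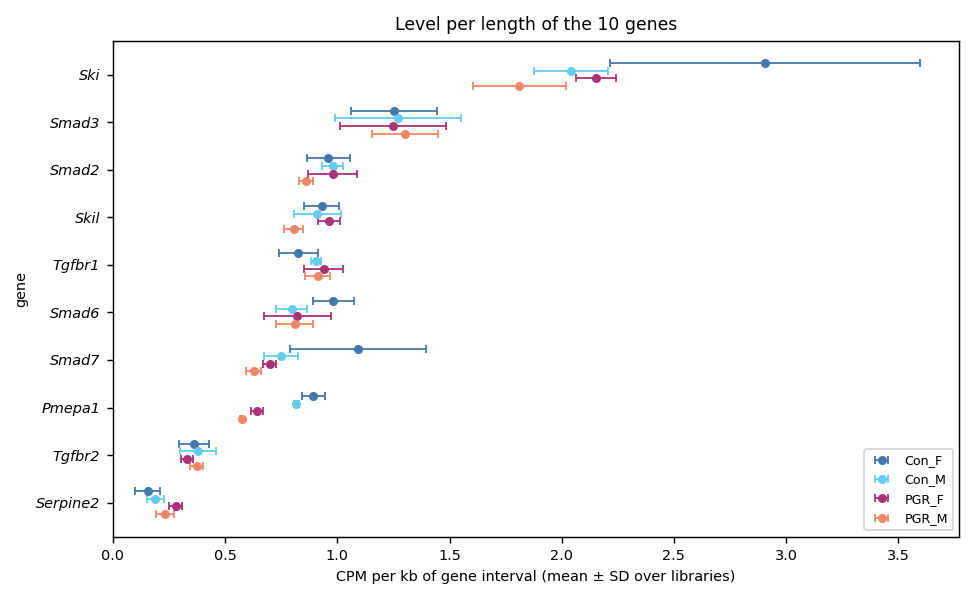
Level of the 10 genes in CPM per kb of gene interval (horizontal axis from 0), mean ± SD over the libraries of each of the 4 groups. Ski has the highest level, the genes from Smad2 to Pmepa1 lie close together, and Serpine2 is last at 0.209 on average.

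The rest of the pathway was described by lists of genes grouped by role. In the averaged vector comparison over all 13 libraries, 0 genes of any list passed edgeR's adjusted threshold. The median log2 fold change was -0.01 over 15 ligands tested, 0.08 over 15 genes of latency and activation, -0.003 over 13 other receptors and 0.003 over 11 other Smads and partners. It was -0.04 over 21 genes of intracellular restraint and turnover, 0.09 over 8 extracellular antagonists, 0.003 over 32 genes induced by TGF-beta, and 0.13 over 12 protease inhibitors and plasminogen genes. The median over all tested genes was 0.004. Without Con_F 4 the list medians ran from -0.05 for restraint and turnover to 0.15 for protease inhibitors and plasminogen genes, with 0.05 for the induced genes. Among single genes, Usp4, a deubiquitinase of the type I receptor, had -0.18 ± 0.05 (SE) with edgeR's adjusted p = 0.137. Fkbp1a, which holds the type I receptor inactive, had -0.20 ± 0.06 with edgeR's adjusted p = 0.137. Serpinb6a, an intracellular protease inhibitor, had 0.23 ± 0.06 with edgeR's adjusted p = 0.135. Without Con_F 4, Fkbp1a passed the threshold at -0.22 (edgeR's adjusted p = 0.0444) and Serpinb6a at 0.26 (edgeR's adjusted p = 0.0374). In that fit 2.09% of all tested genes passed it. An unadjusted p under 0.05 was met by 14.8% of all tested genes. At that threshold 4 of the 21 genes of restraint and turnover were lower and 1 higher, and 2 of the 32 induced genes were higher. Of the 12 protease inhibitor and plasminogen genes 3 were higher and 1 lower, of the 13 receptors 2 were higher, of the 15 ligands 1 was lower, and the latency, Smad partner and antagonist lists had 0. The induced genes Angptl4 and Junb had log2 fold changes of 1.37 ± 0.58 and 0.45 ± 0.20 (SE), both with edgeR's adjusted p above the threshold, at 0.311 and 0.320. The ligands Inha and Bmp7 had -0.20 and 0.30, the latency genes Ltbp3 and Itgb5 -0.15 and 0.16, and the co-receptors Neo1 and Nrp1 0.16 and 0.32. Smad9 and Smad5 had 0.19 and -0.05, the antagonists Htra1 and Fstl1 0.10 and -0.18, and the thrombin receptor gene F2r 0.24.

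**Figure D4:**
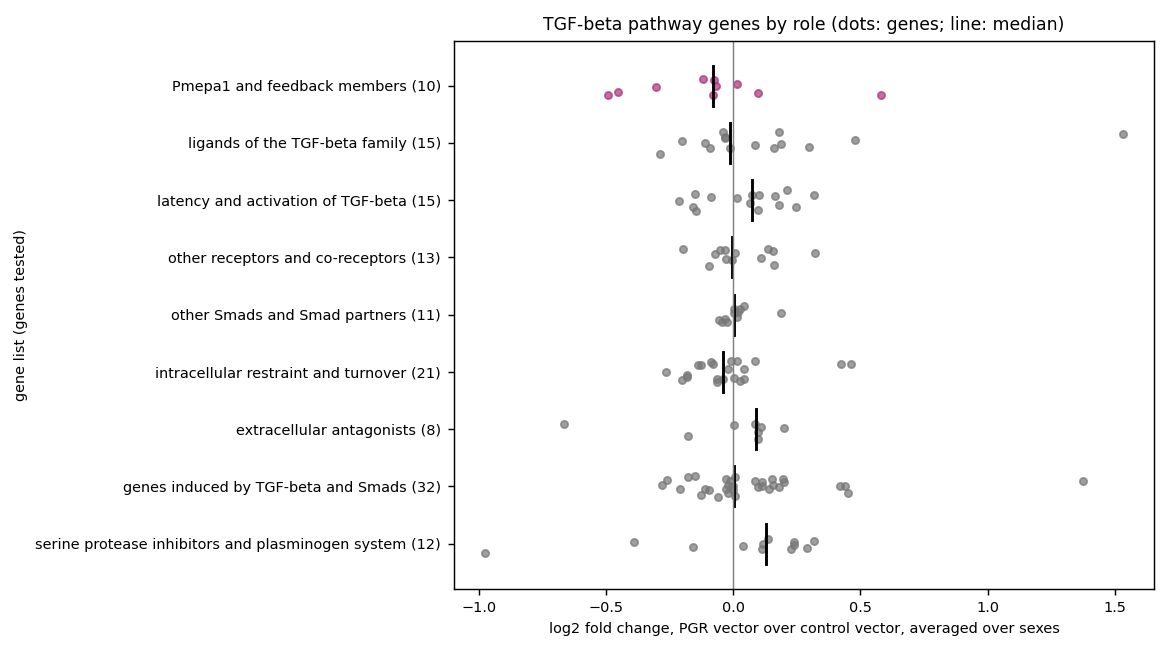
Log2 fold change of PGR over control vector, averaged over the sexes (horizontal axis), for the 10 genes (purple) and for 8 lists of other TGF-beta pathway genes (grey); each dot is a gene that passed the count filter and each black line a median. List medians lie between -0.04 and 0.13, with no gene of the 8 grey lists past edgeR's adjusted threshold over all 13 libraries.

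Between the sexes, 3 of 126 pathway genes outside the 10 passed edgeR's test in at least 1 comparison. Averaged over the vectors they were 2, or 1.59%, against 0.887% of all tested genes, and under the PGR vector 1, or 0.794%, against 0.143%. Ldlrad4, a paralogue of Pmepa1 that also binds Smad2 and Smad3, was higher in females averaged over the vectors, by 0.35 ± 0.07 (SE, log2) with edgeR's adjusted p = 0.0284. Its level was 351.2 to 441.95 CPM in Con_F, 269.9 to 310.95 in Con_M, 351.5 to 360.1 in PGR_F and 271.9 to 310.1 in PGR_M, so that no male library reached a female one. The vector difference of Ldlrad4 was -0.09 ± 0.07 (SE), against -0.49 for Pmepa1. Bmp2, a BMP ligand, was higher in females by 1.14 ± 0.25 with edgeR's adjusted p = 0.0469, at levels of only 0.0855 to 0.399 CPM. Tfpi, an inhibitor of tissue factor, was higher in PGR_F than in PGR_M by 0.46 ± 0.08 with edgeR's adjusted p = 0.0233. Tfpi ranged from 71.7 to 81.8 CPM in PGR_F and from 55.2 to 65.0 CPM in the other 3 groups. These 3 calls were not firm. The call of Bmp2 was lost when any 1 library other than Con_F 4 was left out, with no count filter, in DESeq2 and with the replicate block (adjusted p up to 0.129). The call of Ldlrad4 was lost without any one of Con_F 2, Con_M 2 and 3, PGR_F 1, 2 and 4, and PGR_M 2 and 3 (adjusted p up to 0.0833, differences of 0.31 to 0.38). The call of Tfpi was lost without any one of Con_M 2, PGR_F 1 and 2, and PGR_M 1, 2 and 3, and with only the groups compared (adjusted p up to 0.174, differences of 0.40 to 0.50).

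The genes with the pattern closest to Pmepa1 were found by the root mean square difference of log2 CPM, each gene centred on its mean over the 13 libraries, among 9925 protein-coding genes. They were Gpi1 (0.113), a glycolytic enzyme, Tfeb (0.121), a regulator of lysosome genes, Tbc1d16 (0.124), a Rab GTPase-activating protein, Ap2a1 (0.124), a clathrin adaptor subunit, and Dok7 (0.127), an adaptor of the muscle kinase MuSK. Their averaged vector log2 fold changes were -0.37 for Gpi1, -0.36 for Tfeb, -0.32 for Tbc1d16, -0.29 for Ap2a1 and -0.40 for Dok7. The PGR libraries lay below all control libraries for Tfeb, Tbc1d16, Ap2a1 and Dok7, and overlapped them for Gpi1. Over all tested genes, 0.62% did not overlap between the vectors. The 5 genes were picked for closeness to Pmepa1 over these same libraries, so their vector differences follow from that choice and are no support. Ranked by Pearson correlation, 2 of these 5 (Ap2a1 and Gpi1) stayed among the first 5. Of the other 9 members, Smad7 came nearest at rank 1399 of 16124 genes, and Serpine2 was at rank 15305.

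**Figure D5:**
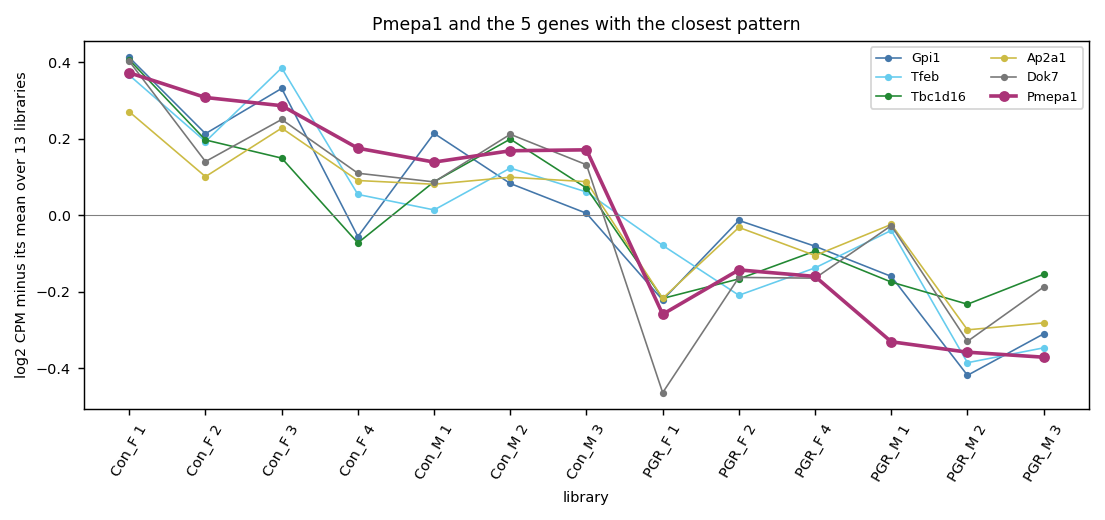
Log2 CPM minus its mean over the 13 libraries (vertical axis) for Pmepa1 (thick purple) and the 5 genes of closest pattern, by library (horizontal axis). The control libraries lie on the left and the PGR libraries on the right. Pmepa1 differs between them by more than the 5 other genes, with a log2 fold change of -0.49 against -0.29 to -0.40. Pmepa1 was chosen on this difference and the 5 for closeness to it, so nothing is read from that order.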

How the data were processed

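RNA of Pcm1-sorted nuclei was depleted of ribosomal RNA and made into directional libraries, per the labels' protocols. The deposited values are read counts per gene interval; tools listed in the submitters' processing notes were featureCounts 1.5.0 and STAR 2.5.3a, and the build was GRCm38 (mm10), with no role given. A smaller deposited table holds 15645 genes, all those whose counts average 10 or more. Gene lengths in the deposited table include introns.

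From the counts, edgeR 4.0.16 (R 4.3.3) fitted 4 group means over the 13 libraries after its filter on low counts and TMM scaling, with the robust quasi-likelihood test and Benjamini-Hochberg adjustment over 16125 genes. SEs were derived from each log2 fold change and its F statistic (its size over the root of F), and log2 CPM used a prior count of 2. Alternatives were other scalings and filters, DESeq2 1.42.0, limma-voom (limma 3.58.1), a replicate block, only the groups compared, and leaving out each library. The fits were checked on simulated counts. No 2 libraries of the same group agreed within counting noise.

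The 10 genes and all lists were chosen with earlier results of these data known. Named genes were the 10; in each list those past the threshold in any comparison and the 2 with the smallest unadjusted p for the averaged vector effect (mean log2 CPM of at least 1); the 5 closest to Pmepa1; the 2 nearest protein-coding neighbours on each side; and marker genes. Pmepa1os was named after its values were seen.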

Additional observations from a re-analysis of the deposited data

Results flagged for a closer look

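In the 4 Con_F libraries, 50 named genes were examined for 1 library far from the others (Dixon's criterion at the 95% level), which chance meets in about 1 of 20 genes. It was met by 3 genes and by none of the 10 members. Ltbp3, which stores latent TGF-beta, was at 28.8 CPM in Con_F 2 against 35.9 to 37.0 in the others. Myom2, a sarcomere protein gene, was at 1096 CPM in Con_F 3 against 920.9 to 929.5. Abcc9, a potassium channel subunit gene, was at 296.8 CPM in Con_F 4 against 255.3 to 261.7.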

How the results depend on the processing

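Over the alternatives run, the averaged vector difference of Pmepa1 was -0.51 to -0.48 on the log2 scale; it was chosen on this comparison, so this is no independent support. With no count filter, edgeR called 146 genes for the averaged vector effect, 25 in females (1 of the 10), 12 in males (1 of the 10), 1 for the difference between the sexes, 131 for sex under the control vector, 51 under the PGR vector and 363 averaged. DESeq2 called 334 (3 of the 10), 81 (3), 29 (1), 1, 224, 80 and 548 (1) in the same order, and limma-voom 2 for the averaged vector effect. Using only the groups compared gave 1 gene in males, 17 for sex under the control vector and 56 under the PGR vector. Leaving out each library gave 1 to 338 genes (1 to 4 of the 10), 0 to 20 (0 to 4), 0 to 3 (0 to 1), 0 to 0, 14 to 99 (0 to 2), 10 to 44 and 64 to 465 (0 to 2). The highest counts of the 10 came without Con_F 4; those of all genes came without Con_F 4 for the first, second and PGR-vector comparisons, without PGR_M 2 in males and without Con_M 1 for sex under the control vector and averaged. No called value changed sign, but uncalled values near 0 did. Without Con_M 1, for example, the averaged vector differences of Smad3 and Tgfbr2 were -0.07 and 0.02, against 0.01 and -0.08. Usp4, Fkbp1a and Serpinb6a passed the averaged vector test in DESeq2 (adjusted p = 0.0314, 0.0431 and 0.0413). Fkbp1a and Serpinb6a also passed it in edgeR without Con_F 4 (adjusted p = 0.0444 and 0.0374). The cause of these changes was not tested.

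Same-numbered libraries did not deviate together: 3 of 16 pairs had a correlation above 0.1 (range -0.25 to 0.25), and 5 of 13 libraries correlated best with their own number. With the replicate number as a block, edgeR called 35 genes for sex under the PGR vector. For sex averaged over vectors that fit called 143 genes, 1 of them among the 10 (Ski, 0.48, edgeR adjusted p = 0.0387). The numbers are therefore not read as pairing.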
